A study of Saccharomyces cerevisiae with 36 samples.

Results

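Heat-shocked budding yeast (Saccharomyces cerevisiae) that carries a chaperone expression cassette, called HSF1+ here, was compared with heat-shocked wild type (WT), gene by gene over the whole transcriptome. The comparison uses every library that the labels place in these groups, 3 of HSF1+ and 3 of WT, which is 6 of the 36 RNA-seq libraries of the series. The series covers 4 strains (WT, HSF1+, hsf1∆ and msn2/4∆) in 3 conditions with 3 libraries each. HSF1+ is the strain that holds the same chaperone cassette as hsf1∆ but keeps an HSF1 gene, and its comparison with WT gives the levels reached at 37 °C with the extra chaperones.

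Both strains are labelled MATa with the auxotrophies his3∆1, leu2∆0, ura3∆0 and met15∆0. HSF1+ is labelled LYS2 and has, in place of the native HSF1 gene (labelled hsf1∆::), an insertion that holds HSF1 itself, the drug marker kanMX, and 3 chaperone genes under strong constitutive promoters: YDJ1 behind the ADH1 promoter, HSC82 behind the TEF1 promoter and SSA2 behind the TDH3 promoter. WT is labelled without any of these. Cells grew in rich YPD medium at 25 °C, and the heat-shocked cultures were moved to 37 °C for 15 min. The same strains were also sequenced untreated at 25 °C and after 1 h in 10 mM azetidine-2-carboxylic acid (AzC), a proline analog that makes new proteins misfold. The deposited table does not separate reads of a cassette copy from reads of the native gene, so each value for YDJ1, HSC82 or SSA2 sums both. The letter D in YDJ1 and in 2 of the promoter names appears as a delta mark in the labels and was read as D. HSF1+ is labelled as 1 strain, with no second isolate.

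In yeast, heat unfolds proteins and draws Hsp70 chaperones away from the transcription factor Hsf1, which is then free to activate genes for Hsp70, Hsp90, the disaggregase Hsp104 and their partners. Hsp70 and its J-protein partners thereby repress the factor that makes more of them. The paired factors Msn2 and Msn4 drive a broader stress programme of trehalose, antioxidant and small heat shock genes.

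The 6 libraries held between 10222512 and 14496958 counts. Levels are in CPM, the count of a gene relative to its library's size and TMM factor. Differences are log2 values, HSF1+ minus WT, with the standard error of the fit. Of the 7126 genes, 6109 passed the low-count filter, and the p-values are adjusted over all of them (edgeR quasi-likelihood test, Benjamini-Hochberg). The labels state that cells were grown in triplicate but not on which days, so p-values measure the spread between cultures. That spread was estimated over all 36 libraries in their 12 groups, not over these 6 alone. Calls needed a 2-fold difference and an adjusted p under 0.05. At 37 °C 422 genes were called, 6.91% of those tested, with 259 higher (4.24%) and 163 lower (2.67%) in HSF1+. The split depends on the scaling: with library size alone 202 were higher and 199 lower.

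A pair of features of these libraries comes first because most results touch them. Genes of chromosome XIII stood about 1 log2 unit higher in HSF1+ than in WT as a block. Of the 259 genes called higher, 212 lie on chromosome XIII, which is 46.3% of its genes tested, and 3 of the 163 called lower do (0.655%). Among 421 chromosome XIII genes with at least 10 CPM the median difference at 37 °C was 0.99, or 1.99-fold, and 374 of them (88.8%) lay between 0.5 and 1.5. Of 4795 such genes on the other chromosomes 4.82% lay in that range, and their median was -0.01. The medians of the other 15 chromosomes ran from -0.05 to 0.00. Along chromosome XIII, 19 windows of 50000 bases each had medians from 0.84 to 1.11.

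Counts on chromosome XIII made up 14.9%, 15.2% and 15.6% of each HSF1+ library and 7.55%, 7.83% and 7.93% of each WT library. The strains do not overlap, and the exact permutation test on 3 against 3 libraries gave a two-sided p of 0.1, the smallest this design allows. Separate libraries of the same strains showed the same block, with medians of 0.97 untreated and 1.00 in AzC. DNA was not measured, and whether HSF1+ cells carry an extra copy of the chromosome was not tested. The split by chromosome was chosen after these values were seen. Genes off chromosome XIII are therefore counted apart from here on, and tested genes with no matched position are included among them. Of these 5651 genes tested, 47 were called higher (0.832%) and 160 lower (2.83%). With no fold minimum 546 were higher (9.66%) and 976 lower (17.3%), and gene lists are read against these shares. For 11.2% of these genes every HSF1+ library was above every WT library, and for 20.5% every one was below.

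**Figure D1:**
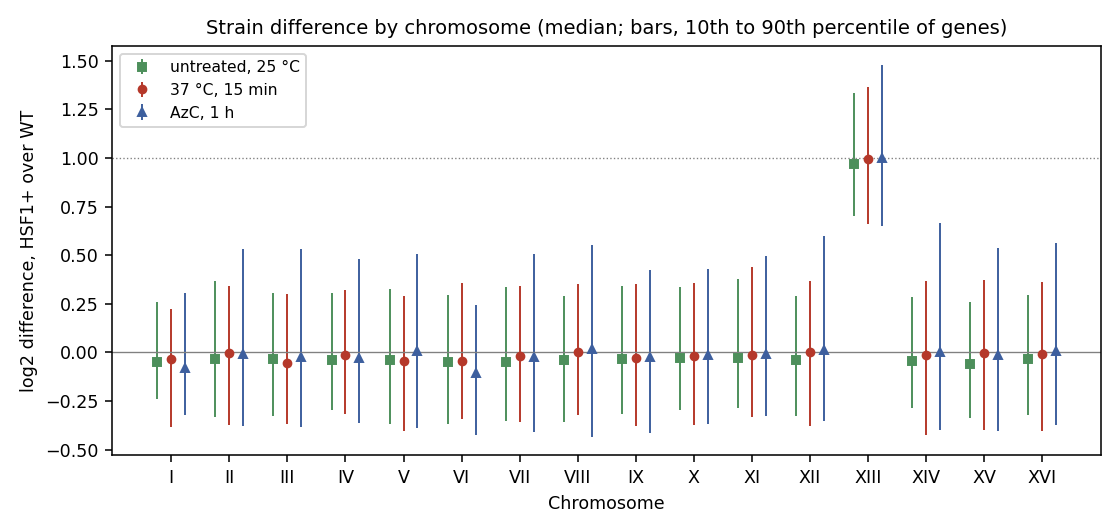
Median log2 difference, HSF1+ over WT, of the genes with at least 10 CPM on each chromosome (y axis) for the 16 nuclear chromosomes (x axis), untreated, at 37 °C and in AzC, with bars from the 10th to the 90th percentile of genes. Chromosome XIII sits at 0.97, 0.99 and 1.00, and at 37 °C the other 15 chromosomes lie between -0.05 and 0.00.

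**Figure D2:**
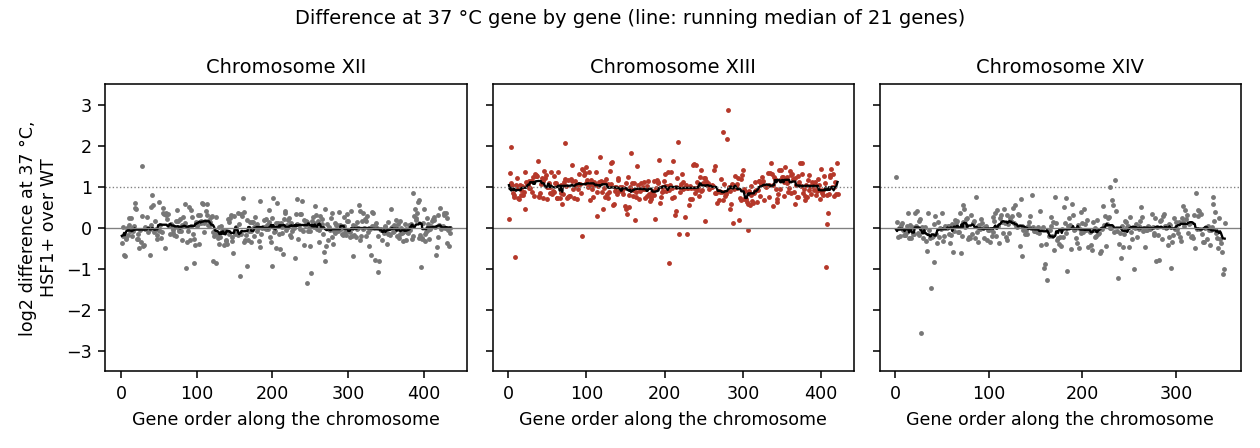
Log2 difference at 37 °C, HSF1+ over WT (y axis), of each gene with at least 10 CPM in its order along chromosomes XII, XIII and XIV (x axis), with a running median of 21 genes as a line and dotted lines at a log2 difference of 1. The line stays near 1 from end to end of chromosome XIII and near 0 on both neighbours.

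The second feature is how much the counts depended on WT replicate 1. Without it the genes off chromosome XIII called higher went from 47 to 173, while those called lower stayed at 160 in number; with replicates 2 and 3 of both strains alone they were 68 and 150. Leaving out any one of the other 5 libraries gave 41 to 52 higher and 154 to 168 lower. Same-numbered libraries of the strains deviated together, so the deviation of replicate 1 was shared by HSF1+ (correlation over genes 0.65). With replicate number as a block the counts were 50 and 168.

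Stretches before the reading frames of 4 genes named below are shown: the cassette gene SSA2, the phosphate genes SPL2 and PHO5, and the catalase gene CTT1. No promoter was tested, and the SSA2 stretch is that of the native gene, not of the cassette copy. Each line gives the 300 bases before the annotated start, 5′ to 3′ on the gene's strand, from the RefSeq R64 assembly, at chrXII:97486-97785 (minus strand) for SSA2, chrVIII:375101-375400 (minus strand) for SPL2, chrII:430952-431251 (minus strand) for PHO5 and chrVII:654334-654633 (plus strand) for CTT1. Capitals mark a heat shock element in SSA2 (blocks TTC, GAA and TTC, or on the other strand GAA, TTC and GAA, with any 2 bases between blocks), the Pho4 motif CACGTG in SPL2 and PHO5, and the stress response element AGGGG or CCCCT in CTT1. The heat shock element letters occur in 0.867% of 6001 windows of this length, CACGTG in 3.57% and the stress element in 22.2%. A match is a run of letters and not a measured binding site.
SSA2: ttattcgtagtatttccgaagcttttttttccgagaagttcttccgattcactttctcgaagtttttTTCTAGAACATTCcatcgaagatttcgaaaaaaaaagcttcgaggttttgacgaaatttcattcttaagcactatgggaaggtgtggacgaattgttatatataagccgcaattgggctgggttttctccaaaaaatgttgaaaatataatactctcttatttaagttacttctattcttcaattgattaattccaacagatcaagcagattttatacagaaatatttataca
SPL2: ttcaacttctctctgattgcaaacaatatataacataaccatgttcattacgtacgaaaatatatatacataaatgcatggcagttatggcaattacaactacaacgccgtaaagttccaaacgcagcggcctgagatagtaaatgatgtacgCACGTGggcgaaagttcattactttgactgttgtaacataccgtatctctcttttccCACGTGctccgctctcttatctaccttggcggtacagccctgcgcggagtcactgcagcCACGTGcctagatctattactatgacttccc
PHO5: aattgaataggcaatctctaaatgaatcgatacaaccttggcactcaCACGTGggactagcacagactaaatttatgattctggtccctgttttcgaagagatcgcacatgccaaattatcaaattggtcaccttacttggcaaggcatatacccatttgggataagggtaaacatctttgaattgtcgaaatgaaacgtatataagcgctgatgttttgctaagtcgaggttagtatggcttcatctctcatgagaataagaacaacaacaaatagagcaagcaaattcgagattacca
CTT1: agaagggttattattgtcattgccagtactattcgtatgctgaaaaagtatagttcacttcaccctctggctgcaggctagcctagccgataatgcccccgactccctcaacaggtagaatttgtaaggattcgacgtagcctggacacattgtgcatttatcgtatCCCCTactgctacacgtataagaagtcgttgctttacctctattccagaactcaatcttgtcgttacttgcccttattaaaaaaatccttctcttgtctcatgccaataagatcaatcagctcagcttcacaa

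All 3 cassette chaperone transcripts were higher in HSF1+ at 37 °C, and each stood above its untreated mean in both strains. SSA2 (YLL024C, chromosome XII, 95566 to 97485), a constitutive cytosolic Hsp70 whose printed upstream stretch holds 1 heat shock element, read 7505, 9406 and 10094 CPM in the WT libraries and 25439, 27691 and 24056 in HSF1+. The lowest HSF1+ library was above the highest WT one, and the difference was 1.52 ± 0.16 (2.86-fold, adjusted p = 1.11e-08). Untreated, SSA2 averaged 3119 CPM in WT and 4630.2 in HSF1+, a log2 difference of 0.57. The strain difference was thus 0.95 ± 0.23 greater at 37 °C than at 25 °C, and that test of the difference passed (adjusted p = 0.00561).

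YDJ1 (YNL064C, chromosome XIV), the main cytosolic J-protein that hands substrates to Hsp70, read 1786, 2006 and 2085 CPM in WT and 3119.9, 2904 and 2631 in HSF1+. Its libraries did not overlap, and the log2 difference was 0.56 ± 0.13 (adjusted p = 0.00155), near its untreated value of 0.68. HSC82 (YMR186W, chromosome XIII), the constitutive Hsp90, read 8647, 11698 and 11974 CPM in WT and 21065, 21784 and 20257 in HSF1+. Those groups did not overlap either, and the difference was 0.97 ± 0.18 (adjusted p = 7.76e-05). HSC82 lies on chromosome XIII, whose median was 0.99, so for this gene the cassette copy and the level of the chromosome cannot be told apart.

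The heat-inducible sister genes of these chaperones did not pass the test. SSA1, the Hsp70 most like SSA2, read 7434, 9601 and 10453 CPM in WT and 9018, 10794 and 9200.0 in HSF1+ (log2 0.08 ± 0.14, adjusted p = 0.716). HSP82, the inducible Hsp90, read 6969.9, 10044 and 10776 CPM in WT and 8949.6, 10694 and 9713 in HSF1+ (log2 0.08 ± 0.16, adjusted p = 0.752). Both genes overlapped between strains, with WT replicate 1 the lowest of the 6 libraries. The reading frames of SSA1 and SSA2 are 96.4% identical over 1929 aligned bases with a longest identical run of 383, and those of HSP82 and HSC82 are 91.7% identical. How reads that match both members of a pair were assigned is not given, so the split within each pair is uncertain.

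Of 21 Hsf1-target chaperones and folding factors, none on chromosome XIII, none passed as higher in HSF1+ at 37 °C and 6 passed as lower. That is 28.6% beside 17.3% of all genes off chromosome XIII, and the median was -0.26 beside -0.02. The count was 4 with only the compared groups in the fit, without HSF1+ replicate 1 or without WT replicate 3, a share near the background, and 10 without WT replicate 1. The 6 were AHA1, FES1, CUR1, STI1, HCH1 and CPR6, and 4 of them are partners of Hsp90. In the 300 bases before their starts 9 of the 21 genes hold the heat shock element letters. Untreated, 6 of the 21 also passed as lower and 1 as higher (median -0.28), beside 13.5% and 11.6% off chromosome XIII. In AzC 14 passed as lower and none as higher (median -0.39), beside 1273 of all 6109 genes tested that passed as lower. The difference between temperatures passed for 1 member with a positive sign and 1 with a negative, beside 4.23% and 7.36%.

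AHA1, which stimulates the ATPase of Hsp90, showed the clearest difference. It read 1902, 2239.5 and 2323 CPM in WT and 1103, 1209 and 1172 in HSF1+. Every HSF1+ library was below every WT library, at -0.89 ± 0.09 (adjusted p = 3.15e-09), and it was lower by a like amount untreated (-0.68) and in AzC (-1.03). STI1, which links Hsp70 to Hsp90, read 4531, 5745 and 5924 CPM in WT and 3701, 4285 and 3557 in HSF1+. The groups did not overlap and the difference was -0.49 ± 0.11 (adjusted p = 0.00073; 0.0552 with only the compared groups in the fit). HCH1, a small relative of AHA1, differed by -0.36 ± 0.07 (adjusted p = 6.35e-05), and CPR6, a proline isomerase bound to Hsp90, by -0.26 ± 0.09 (adjusted p = 0.0178).

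Of the remaining 2, FES1, a nucleotide exchange factor of Hsp70, read 660.4, 838 and 911 CPM in WT and 501, 583 and 455 in HSF1+ (log2 -0.65 ± 0.16, adjusted p = 0.00244). CUR1, which helps sort misfolded proteins to the nucleus, read 131.9, 171 and 197 and 96.7, 118.6 and 115.2 CPM (log2 -0.60 ± 0.18, adjusted p = 0.0124). In both genes the highest HSF1+ library stayed under the lowest WT one. The CUR1 call was lost without HSF1+ replicate 1 (adjusted p = 0.065) or WT replicate 3 (0.0867), and that of CPR6 without any of 4 libraries (0.0577 to 0.0835), with only the compared groups (0.106) and with scaling factors computed without chromosome XIII (0.0649).

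The large heat shock transcripts did not pass the test. SSA4, the strongly inducible Hsp70, read 16596, 20826 and 23172 CPM in WT and 18742, 20654 and 17685 in HSF1+ (log2 -0.09 ± 0.17, adjusted p = 0.748), with groups that overlap. HSP104, the disaggregase, read 12146, 15951 and 17152 and 10942, 13175 and 11698 CPM (log2 -0.34 ± 0.17, adjusted p = 0.133). Its groups overlapped only at WT replicate 1, without which the adjusted p was 0.0401, and with replicates 2 and 3 alone it was 0.049. HSP42, a small heat shock protein that collects aggregates, read 3513, 4659 and 5085 and 2708, 3531 and 2978 CPM (log2 -0.52 ± 0.20, adjusted p = 0.0501). It sat near the threshold and passed in 7 other settings, with adjusted p values of 0.0184 to 0.047, among them the replicate block at 0.0287.

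SIS1, an essential J-protein that tunes Hsf1, gave -0.18 ± 0.11 (adjusted p = 0.254) and BTN2, the partner of CUR1 in sorting, -0.53 ± 0.23 (adjusted p = 0.0792). Neither passed in the main fit. SIS1 passed with replicates 2 and 3 alone (0.0428). BTN2 passed without WT replicate 1 (0.0177) or HSF1+ replicate 2 (0.0469), with library size alone (0.0395) and with replicates 2 and 3 alone (0.013). WT replicate 1 was the lowest WT library for HSP104, HSP42, SSA4, BTN2, SIS1 and AHA1. Among the HSF1+ libraries replicate 1 was the lowest for HSP104, HSP42 and AHA1, and replicate 3 for SSA4, BTN2 and SIS1. With replicates 2 and 3 of both strains alone 12 of the 21 list members passed as lower. With scaling factors computed without chromosome XIII, with replicate number as a block, or without WT replicate 3, 1 member passed as higher.

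For HSP42 the strain difference depended on temperature. Untreated it averaged 44.4 CPM in WT and 94.9 in HSF1+, a log2 difference of 1.09 that passed (adjusted p = 0.00015). The difference of strain differences was -1.62 ± 0.29 (adjusted p = 0.00039).

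Outside that list, 2 heat-inducible genes were lower in HSF1+. SSA3, an Hsp70 that Msn2 and Msn4 also drive, read 1584, 1909 and 2094 CPM in WT and 853, 952 and 1003 in HSF1+, at -0.99 ± 0.15 (adjusted p = 4.22e-06). HSP30, a plasma membrane heat shock protein, read 183, 292 and 453 CPM in WT and 34.0, 72.4 and 97.6 in HSF1+, at -2.19 ± 0.37 (adjusted p = 2.01e-05). Neither gene overlapped between strains. For SSA3 the untreated difference was 0.06, and the test of the difference between temperatures passed (-1.06 ± 0.21, adjusted p = 0.00125).

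**Figure D3:**
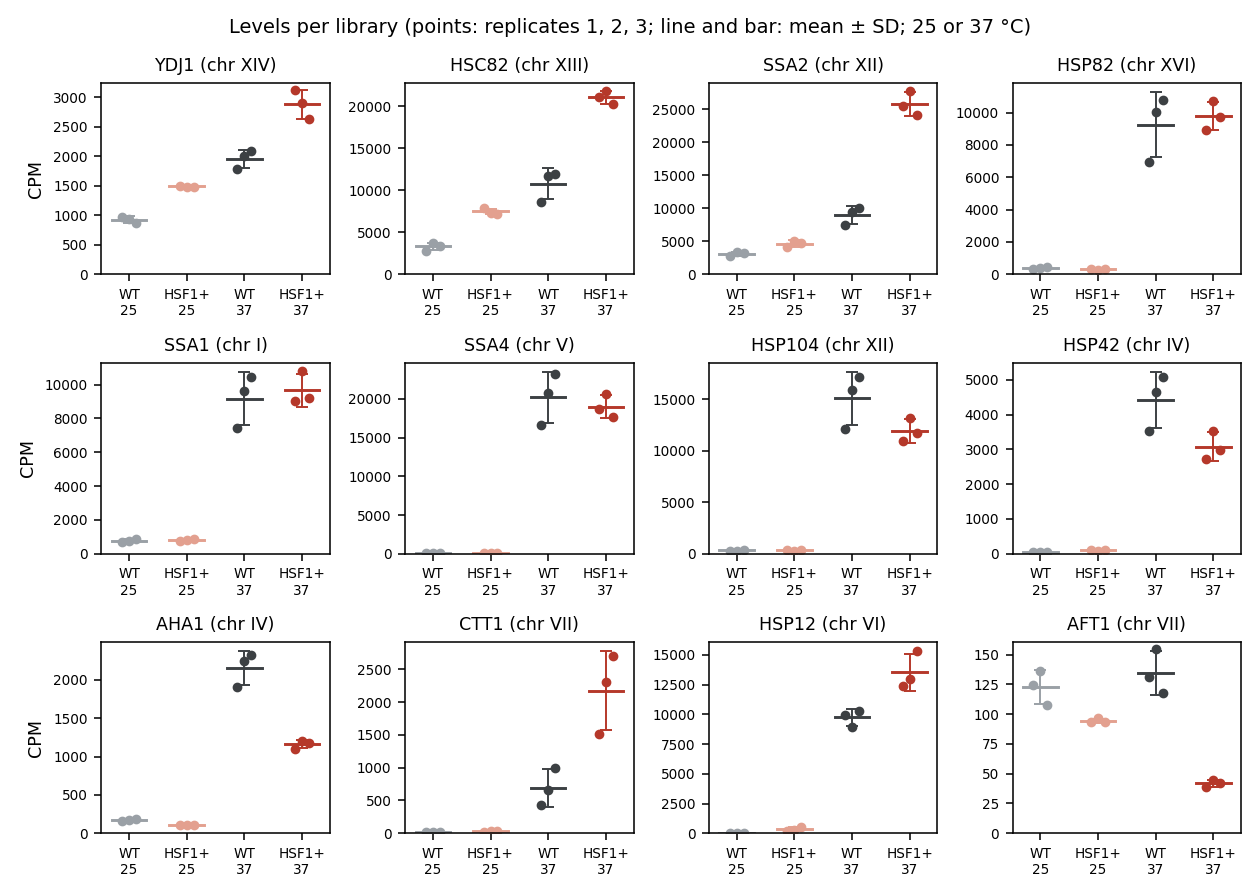
Levels in CPM (y axes, linear from 0) of 12 genes in each of the 3 WT and 3 HSF1+ libraries, untreated at 25 °C and at 37 °C (x axes); points are libraries, lines with bars are mean ± SD (n = 3). SSA2 stands at 24056 to 27691 CPM in HSF1+ at 37 °C against 7505 to 10094 in WT, AHA1 and AFT1 are lower in HSF1+, and SSA1, HSP82 and SSA4 overlap.

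Transcripts at the inserted HSF1 locus and some next to it differed between the strains. HSF1 (YGL073W, chromosome VII, 368753 to 371254) read 203, 196 and 199 CPM in WT and 149, 163 and 156 in HSF1+. The groups did not overlap, and the difference of -0.35 ± 0.13 passed narrowly (adjusted p = 0.041); leaving out any single library gave adjusted p values of 0.0558 to 0.116, and scaling factors computed without chromosome XIII gave 0.0927. Untreated, the difference was -0.83 (adjusted p = 1.43e-05).

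AFT1 (YGL071W, 372012 to 374084), the next annotated gene, begins 757 bases past the end of HSF1 on the same strand and encodes the activator of the iron uptake genes. It read 130.9, 155 and 117.8 CPM in WT and 38.9, 44.8 and 42.1 in HSF1+ at 37 °C. No HSF1+ library came near the lowest WT library, a difference of -1.68 ± 0.10 (adjusted p = 4.91e-14). Untreated it averaged 122.7 CPM in WT and 94.4 in HSF1+, a difference of -0.38 (adjusted p = 0.00203), and the gap between the temperatures passed (-1.30 ± 0.13, adjusted p = 7.06e-08).

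The table also lists an unnamed frame, YGL072C, that the annotation used here does not hold. Its libraries read 22.0, 19.1 and 18.3 CPM in WT and 3.37, 4.88 and 5.96 in HSF1+ (log2 -2.07 ± 0.19, adjusted p = 1.08e-09). Of the 12 other genes tested within 10 kb of HSF1, 1 passed as higher and 2, AFT1 among them, as lower. Those counts are close to the shares of all genes off chromosome XIII, 9.66% higher and 17.3% lower. MNP1, a mitochondrial ribosomal protein gene, was higher at 0.74 ± 0.09. NPY1, an NADH pyrophosphatase gene, was lower at -0.22 ± 0.07 (adjusted p = 0.0108), a call lost without any of 3 libraries (0.0509 to 0.0756) and with only the compared groups (0.193). RPB9, between AFT1 and MNP1, gave 0.15 ± 0.09 and did not pass (adjusted p = 0.204). Whether the insertion changes transcription of its neighbours was not tested.

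The iron uptake list leaned lower in HSF1+. Of 18 members tested off chromosome XIII, 8 passed as lower and 1 as higher, beside 17.3% and 9.66% of all such genes, with a median of -0.33. FIT3, a cell wall protein that holds iron carriers, read 784, 736 and 569 CPM in WT and 257, 312 and 239 in HSF1+, at -1.37 ± 0.23 (adjusted p = 2.84e-05) and with no overlap. FIT1, its relative, differed by -1.41, FRE5, a reductase family member, by -1.26, and the enterobactin transporter gene ENB1 by -0.86 (adjusted p = 8.52e-05, 0.00137 and 7.68e-05). FET3, the iron-oxidising uptake enzyme, lies on chromosome XIII and was higher at 0.95 ± 0.15, close to the chromosome's median. Untreated, 15 of the 18 passed as lower, beside 13.5% of all such genes, with a median of -0.74. Whether the AFT1 level bears on this list was not tested. In FIT3 the untreated difference was -2.62, and it differed from that at 37 °C by 1.25 ± 0.33 (adjusted p = 0.0117; 0.0622 with replicates 2 and 3 alone and 0.0505 with only the compared groups).

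Msn2/4 target genes leaned higher in HSF1+. At 37 °C 11 of 25 passed as higher and 1 as lower, beside 15.7% and 16.1% of all genes tested, but 6 of the 11 lie on chromosome XIII. Off that chromosome 5 of 19 passed as higher and 1, SSA3, as lower, beside 9.66% and 17.3%, with a median of 0.33. With replicate number as a block 9 of the 19 passed as higher. Untreated, 17 of the 19 passed as higher, beside 11.6%, with a median of 1.44. In 11 of the 19 the strain difference at 37 °C was significantly below the untreated one, beside 7.36% of all genes off chromosome XIII. Of the 25 upstream windows 21 hold the stress element letters.

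CTT1, the cytosolic catalase, read 425, 653 and 997 CPM in WT and 1515, 2302 and 2703 in HSF1+. Its groups did not overlap, although both spread widely, and the difference was 1.65 ± 0.28 (3.14-fold, adjusted p = 3.11e-05). TKL2, a minor transketolase, read 205, 265 and 356 and 550.3, 791 and 983 CPM and differed by 1.49 ± 0.22 (adjusted p = 4.67e-06). RTN2, a reticulon of the endoplasmic reticulum, differed by 1.35 ± 0.26, the cell wall protein gene YGP1 by 0.80 ± 0.17 and OM45, of the mitochondrial outer membrane, by 0.67 ± 0.20 (adjusted p = 0.00012, 0.000333 and 0.0114). The OM45 call was lost without WT replicate 1 (0.0611) or HSF1+ replicate 3 (0.0753) and with only the compared groups (0.0995).

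HSP12, a membrane-stabilising small protein, did not pass at 37 °C. It read 9945, 8974 and 10307 CPM in WT and 12366, 12962 and 15306 in HSF1+, groups that do not overlap, with a log2 difference of 0.48 ± 0.47 (adjusted p = 0.47; 0.0308 with only the compared groups in the fit). Untreated it averaged 17.1 ± 4.72 CPM in WT and 348 ± 185 in HSF1+ (SD, n = 3), a log2 difference of 4.35. The difference at 37 °C minus the untreated one was -3.87 ± 0.69, the lowest among the named Msn2/4 targets (adjusted p = 0.000331). DDR2, a stress gene of unknown mechanism, followed the same course, from 3.88 untreated to 0.68 ± 0.32 at 37 °C (adjusted p = 0.11; 0.0261 with the block). SOL4, a pentose phosphate pathway gene, went from 3.11 to 0.32, and YGP1 from 3.34 to 0.80.

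TPS1, the trehalose phosphate synthase, gave 0.33 ± 0.17 at 37 °C (adjusted p = 0.149; 0.0231 with the block) and 1.03 untreated. MSN2 lies on chromosome XIII and read 173, 187 and 177 CPM in WT and 321, 318 and 290.5 in HSF1+, at 0.79 ± 0.12 (adjusted p = 5.94e-06). MSN4, on chromosome XI, went the other way, with 105.1, 115.5 and 125.8 CPM in WT and 69.9, 60.4 and 60.7 in HSF1+ (-0.86 ± 0.11, adjusted p = 3.02e-07). Neither factor's groups overlapped. Untreated, MSN4 was higher in HSF1+ by 0.60, so its difference reversed with heat (-1.46 ± 0.16, adjusted p = 1.61e-07).

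Stress genes on chromosome XIII were higher than its median in part. ALD3, an aldehyde dehydrogenase, read 507, 656 and 927 CPM in WT and 2667, 3519 and 4313 in HSF1+, at 2.33 ± 0.24, which is 1.34 above the median of its chromosome. MSC1 stood at 1.97 and the glutamate decarboxylase gene GAD1 at 1.49. TSL1, a subunit of the trehalose synthase, stood at 1.14, the phosphoglucomutase gene PGM2 at 1.00 and DDR48 at 0.82. Untreated, the last 3 were at 3.78, 2.12 and 2.44.

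Over the whole of chromosome XIII, 23 of the 421 genes were above 1.5 at 37 °C, ALD3 and MSC1 among them, 24 were below 0.5, and 2 passed as lower. Highest was SIP18, a desiccation gene, with 27.2, 21.8 and 30.8 CPM in WT and 141, 161 and 286 in HSF1+ (2.87 ± 0.23). Its neighbour PAI3, a protease A inhibitor, stood at 2.16, the stationary phase gene SPG4 at 2.10, the lactate dehydrogenase gene CYB2 at 2.07 and GLO1, which clears methylglyoxal, at 1.72. All the libraries of these 5 genes were higher in HSF1+ than in WT. The alcohol dehydrogenase gene ADH6 stood at 1.58.

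At the other end ADH2, the glucose-repressed alcohol dehydrogenase, read 33.0, 21.2 and 20.9 CPM in WT and 17.4, 12.8 and 8.33 in HSF1+ (-0.95 ± 0.24, adjusted p = 0.00318; 0.082 with only the compared groups). SNZ1, of vitamin B6 synthesis, read 92.4, 63.7 and 50.3 and 41.3, 36.03 and 36.3 (-0.86 ± 0.14, adjusted p = 2.41e-05). Both were lower in every HSF1+ library. CLN1, a G1 cyclin, gave -0.04 ± 0.13 (adjusted p = 0.837), and PHO84, the main phosphate transporter, gave -0.70 ± 0.31 with overlapping groups (adjusted p = 0.091; 0.0199 with the block). Without WT replicate 1 the PHO84 difference was -0.304, while without HSF1+ replicate 1 it was -1.18 and passed (0.00678), as it did without WT replicate 3 (0.0292).

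Most phosphate genes were lower in HSF1+, and most of them by more without heat. Yeast induces these genes through Pho4 when phosphate runs low. Off chromosome XIII 12 of 15 passed as lower and none as higher at 37 °C, beside 17.3% lower in all, with a median of -0.48. No member passed as higher in any of the alternative settings, and 8 of 16 list members hold CACGTG in their upstream window.

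SPL2, an inhibitor of low-affinity phosphate uptake with 3 such motifs in its printed stretch, read 60.1, 46.7 and 48.6 CPM in WT and 7.24, 5.12 and 7.95 in HSF1+. Every HSF1+ library was far below every WT library, and the difference was -2.94 ± 0.16 (adjusted p = 1.36e-14). PHO5, the secreted acid phosphatase with 1 motif shown, read 52.9, 45.0 and 44.5 CPM in WT and 14.4, 14.0 and 14.2 in HSF1+ (-1.74 ± 0.14, adjusted p = 5.88e-11). PHO89, a sodium-driven phosphate transporter, differed by -1.73 ± 0.42 and PHO12, another acid phosphatase, by -1.28 ± 0.23 (adjusted p = 0.00197 and 6.98e-05). The PHO89 value moved between -2.14 and -1.13 without single libraries, and its adjusted p was 0.0854 with only the compared groups. In VTC3 and VTC4, which make polyphosphate, the differences were -0.47 ± 0.09 and -0.54 ± 0.07.

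Untreated, PHO5 averaged 295 CPM in WT and 13.8 in HSF1+, against 47.5 and 14.2 at 37 °C. The HSF1+ level was thus alike at both temperatures while the WT level was lower with heat, and the strain difference shrank by 2.68 ± 0.20 (adjusted p = 2.7e-10). The same test passed with a positive sign for 12 of the 15 genes off chromosome XIII, among them SPL2, PHO89, PHO12, VTC3 and VTC4, beside 4.23% of all genes off that chromosome. It passed with a negative sign for 1, PHM8, a phosphate-responsive gene named after its values were seen, which was at 0.35 untreated and -0.87 ± 0.15 at 37 °C (-1.22 ± 0.21, adjusted p = 0.000275).

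Genes of glycolysis and fermentation were lower in HSF1+ at 37 °C. Off chromosome XIII 12 of 16 passed as lower and none as higher, beside 17.3% and 9.66% of all such genes. The list's median was -0.42. ENO2, the main enolase of fermenting cells, read 14879.6, 14734 and 14819 CPM in WT and 7087, 6517 and 5753 in HSF1+ (-1.20 ± 0.12, adjusted p = 1.63e-09). PDC1, the main pyruvate decarboxylase, read 11066, 11450.1 and 10199 and 5636, 5843 and 5100.1 CPM (-0.98 ± 0.12, adjusted p = 1.85e-07). HXK2, the hexokinase that also takes part in glucose repression, read 676, 729 and 750.0 and 421, 341 and 315 CPM (-1.002 ± 0.10, adjusted p = 6.22e-09). In each the highest HSF1+ library was below the lowest WT one. Untreated, the differences were -0.84, -0.30 and -0.66, and for PDC1 the change with heat passed (adjusted p = 0.00865).

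Cell cycle genes were lower as well. Of the G1/S list 11 of 13 off chromosome XIII passed as lower (median -0.49) and of the G2/M list 10 of 11 (median -0.44). None was higher in either list. Of all genes off chromosome XIII 17.3% passed as lower and 9.66% as higher. RNR1, the large subunit of ribonucleotide reductase, read 106.7, 76.4 and 67.0 CPM in WT and 36.9, 24.7 and 32.5 in HSF1+ (-1.41 ± 0.15, adjusted p = 1.06e-08). PCL1, a cyclin of the Pho85 kinase, read 61.5, 59.3 and 62.8 and 21.6, 20.3 and 24.2 CPM (-1.47 ± 0.15, adjusted p = 2.55e-09), and the G1 cyclin gene CLN2 differed by -1.08 ± 0.13 (adjusted p = 1.57e-07). No HSF1+ library of these 3 genes reached the lowest WT library.

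Untreated, RNR1 averaged 656 CPM in WT and 649.9 in HSF1+ (log2 -0.01, adjusted p = 0.958). Its strain difference was -1.40 ± 0.21 lower at 37 °C (adjusted p = 2.94e-05). TOS6, a cell wall protein gene, was 165 and 167 CPM untreated but 26.0, 21.3 and 21.2 in WT and 3.37, 2.80 and 5.49 in HSF1+ at 37 °C (-2.57 ± 0.20, adjusted p = 2.04e-11). SRL1, a mannoprotein gene, read 254, 261 and 289 and 64.7, 60.8 and 63.1 CPM (-2.09 ± 0.09, adjusted p = 7.16e-16). With only the compared groups in the fit, 5 of the G2/M members passed as lower instead of 10.

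In the cell wall list 14 of 24 passed as lower and 2 as higher, beside 17.3% and 9.66% of all genes off chromosome XIII. The list's median was -0.55, and 8 members were lower with only the compared groups in the fit. TIR1, a mannoprotein of cold and low-oxygen cells, read 14.2, 17.9 and 19.5 CPM in WT and 3.70, 4.80 and 3.41 in HSF1+ (-2.11 ± 0.35, adjusted p = 2.01e-05). PRM5, a reporter of the cell wall integrity pathway, read 364, 307 and 252 and 114.8, 99.8 and 89.3 CPM (-1.60 ± 0.16, adjusted p = 4.09e-09). Both were lower in every HSF1+ library. The integrity kinase gene SLT2 differed by -0.79, the glucan synthase gene FKS1 by -0.78 and the wall protein gene CIS3 by -0.81 (adjusted p = 4.15e-06, 3.36e-06 and 8.58e-08). SPI1, a wall protein under Msn2 control, was higher with 726, 829 and 1002 CPM in WT and 1768, 2432 and 2324 in HSF1+ (1.35 ± 0.19, adjusted p = 1.21e-06).

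Genes for folding in the endoplasmic reticulum leaned higher. Off chromosome XIII 6 of 12 passed as higher and none as lower, beside 9.66% higher in all, with a median of 0.21. LHS1, an Hsp70 of that compartment, read 127.9, 144 and 133.4 CPM in WT and 242, 203 and 198 in HSF1+ (0.67 ± 0.08, adjusted p = 1.83e-07). SIL1, an exchange factor there, read 122.5, 134.2 and 128.7 and 242, 204 and 193 CPM (0.73 ± 0.12, adjusted p = 1.74e-05). The groups did not overlap for either gene. The J-protein gene JEM1 differed by 0.59 and the disulfide isomerase gene MPD1 by 0.56 (adjusted p = 0.0004 and 0.000231).

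KAR2, the main Hsp70 of that compartment, read 5134, 7078 and 6955 CPM in WT and 7068, 6885 and 5682 in HSF1+ and did not pass (0.03 ± 0.13, adjusted p = 0.869). ERO1 and SCJ1, on chromosome XIII, stood at 1.34 and 1.15. For LHS1 and SIL1 the untreated differences were -0.01 and -0.13, and the change with temperature passed (adjusted p = 0.000235 and 0.00113).

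Of 30 proteasome genes off chromosome XIII 14 passed as lower, beside 17.3% of all such genes, and none as higher. The amounts were small (median -0.16, lowest -0.38). The count of 14 lower was 25 with library size alone and 5 with only the compared groups in the fit. Glycogen genes had 2 of 10 lower, a share near the 17.3% of all genes off chromosome XIII. That count was 4 with replicate number as a block or without WT replicate 1, and none with only the compared groups. It was 1 without HSF1+ replicate 1, WT replicate 2 or WT replicate 3. Of the cytosolic ribosomal protein genes off chromosome XIII 20 (15.6%) passed as higher, beside 9.66% of all such genes, and 2 as lower. Their median was 0.29. Untreated, none passed as higher and 45 as lower (median -0.38), beside 11.6% and 13.5%. The difference between temperatures passed for 40 with a positive sign and 1 with a negative, beside 4.23% and 7.36%. The count of 20 higher at 37 °C was 2 with only the compared groups in the fit. It was 13 with library size alone and 42 with the block. It was 8 without HSF1+ replicate 3, WT replicate 2 or WT replicate 3, 13 without HSF1+ replicate 1, 35 without HSF1+ replicate 2 and 58 without WT replicate 1. RPL9B, of the large subunit, read 135.8, 131.4 and 110.7 CPM in WT and 247, 218 and 295 in HSF1+ (1.01 ± 0.16), and RPL41B, one of the 2 lower, read 319, 251 and 339 and 112.4, 136.3 and 145 (-1.21 ± 0.18).

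**Figure D4:**
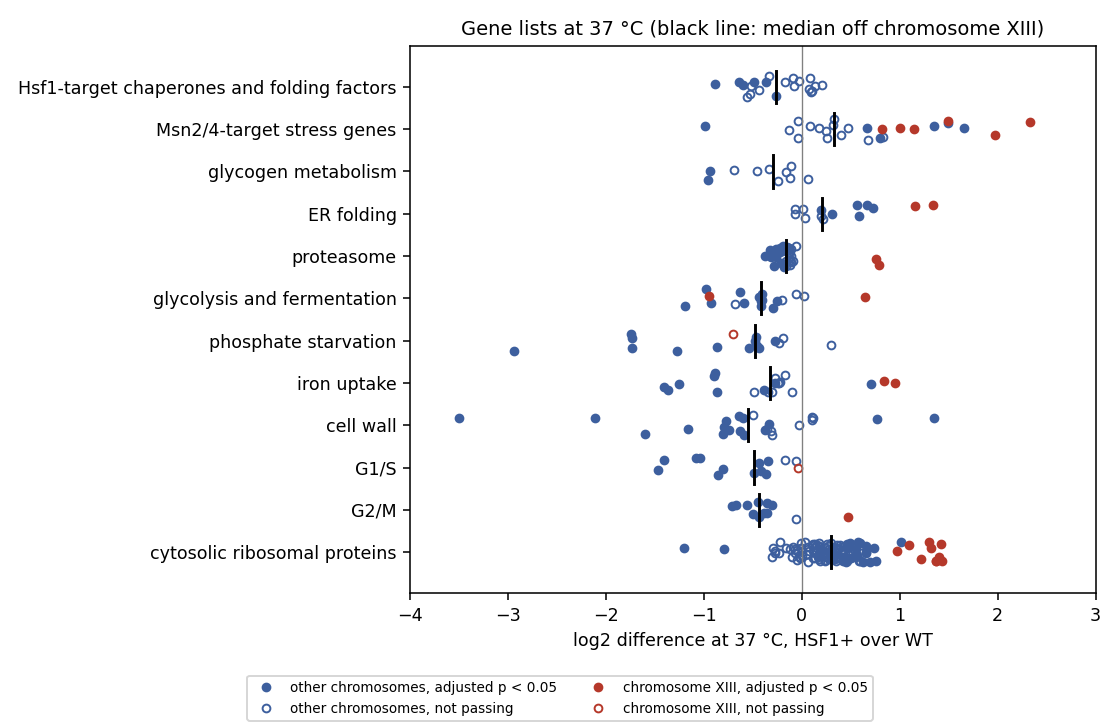
Log2 difference at 37 °C, HSF1+ over WT (x axis), of each tested member of 12 gene lists (y axis); filled points passed an adjusted p of 0.05, open points did not, red points lie on chromosome XIII, and black lines are medians off it. The phosphate, cell wall, G1/S, G2/M and glycolysis lists lie mostly left of 0, and the red points of most lists lie near 1.

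ARG1, of arginine synthesis, read 90.4, 68.9 and 54.2 CPM in WT and 15.0, 13.6 and 10.7 in HSF1+ (-2.43 ± 0.17, adjusted p = 2.81e-12), with the same size of difference untreated (-2.47) and in AzC (-2.14). ARG3, a step earlier, differed by -1.98 ± 0.21. The aromatic and branched-chain catabolic genes ARO9, ARO10 and BAT2 differed by -1.57, -1.40 and -1.17 (adjusted p = 3.55e-06, 0.000875 and 4.71e-08). LYS2, intact by label in HSF1+ and with no lys2 mutation labelled in WT, read 115.4, 109.8 and 88.4 CPM in WT and 90.1, 72.0 and 69.6 in HSF1+ (-0.44 ± 0.10, adjusted p = 0.00107; 0.0876 with only the compared groups).

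PUT4, the proline permease gene, read 13.1, 10.4 and 11.8 CPM in WT and 36.1, 45.1 and 33.6 in HSF1+ (1.70 ± 0.30, adjusted p = 3.65e-05), with 1.76 untreated and 1.73 in AzC. GAP1, the general amino acid permease, differed by 1.17, MUP1, for methionine, by 1.16, AGP1, a broad permease, by 1.00, FUR4, for uracil, by 1.39 and CTR1, for copper, by 1.16. The adjusted p of these 5 ran up to 1.3e-05. All but MUP1 were chosen after their values were seen, and transporters as a group were not counted. GND2, of the pentose phosphate pathway, read 232, 266 and 314 CPM in WT and 557, 747 and 877 in HSF1+ (1.42 ± 0.16, adjusted p = 4.49e-08). MCD4, of membrane anchor synthesis, differed by 1.11 ± 0.14, with HSF1+ replicate 1 the highest at 206 CPM.

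ROF1 (YHR177W in the deposited table, named in the annotation) had the lowest difference among the named genes. It read 10.2, 13.8 and 15.5 CPM in WT and 0.741, 0.881 and 0.568 in HSF1+, with every HSF1+ library under 1 CPM (-4.15 ± 0.27, adjusted p = 7.06e-13). The difference was -3.44 untreated and -3.66 in AzC.

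Both strains carry the transcripts of a cells. All 7 a-cell markers were tested and 6 passed as lower in HSF1+, beside 17.3% of all genes off chromosome XIII. BAR1, the pheromone-degrading protease, read 209, 197 and 196 CPM in WT and 100.1, 84.5 and 85.8 in HSF1+ (-1.15 ± 0.09). Of 3 alpha-cell markers tested 1, STE3, passed as higher. The summed level of the alpha-cell markers was 49.5 to 52.3 CPM in WT and 54.4 to 57.3 CPM in HSF1+, against 956 to 1151 and 638 to 729.6 CPM for the a-cell markers. Their part in other results was not tested.

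RNAs that lack a poly-A tail differed too, in poly-A-selected libraries. Of such RNAs tested (tRNA, small nuclear and nucleolar RNA, rRNA spacers and the like) 37, or 33.0%, passed as lower and 2 as higher, with a median of -0.91. Of all genes tested 16.1% passed as lower and 15.7% as higher. SCR1, the RNA of the signal recognition particle, read 266, 186 and 163 CPM in WT and 53.2, 33.1 and 29.2 in HSF1+ (-2.41 ± 0.33), and RPR1, of RNase P, 51.0, 35.8 and 23.6 and 14.0, 7.77 and 4.35 (-2.06 ± 0.43). snR19, of the spliceosome, differed by -2.43 ± 0.27. Their share of all counts was 0.0597% to 0.0822% in WT and 0.0318% to 0.039% in HSF1+, with no overlap, and whether this follows library preparation was not tested.

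Setting the temperatures side by side, the strain difference at 37 °C differed from the untreated one for 166 genes, 2.72% of those tested, 40 of them (0.655% of all genes tested) in the positive direction and the others (2.06%) in the negative. Without WT replicate 1 there were 341, split 191 and 150. Of the 47 genes off chromosome XIII called higher at 37 °C, 20 (42.6%) were also called higher untreated, which is 16.8% of those called there, and 19 (40.4%) were called higher in AzC, 9.45% of 201. Of the 160 called lower, 60 (37.5%) were called lower untreated, 45.5% of those there, and 67 (41.9%) in AzC, 42.4% of 158. As background, 2.11% of genes off chromosome XIII were called higher untreated and 2.34% lower, and in AzC 3.56% and 2.80%. Over all genes tested 7.45% were called untreated and 9.54% in AzC, in either direction. These comparisons use separate libraries of the same strains.

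**Figure D5:**
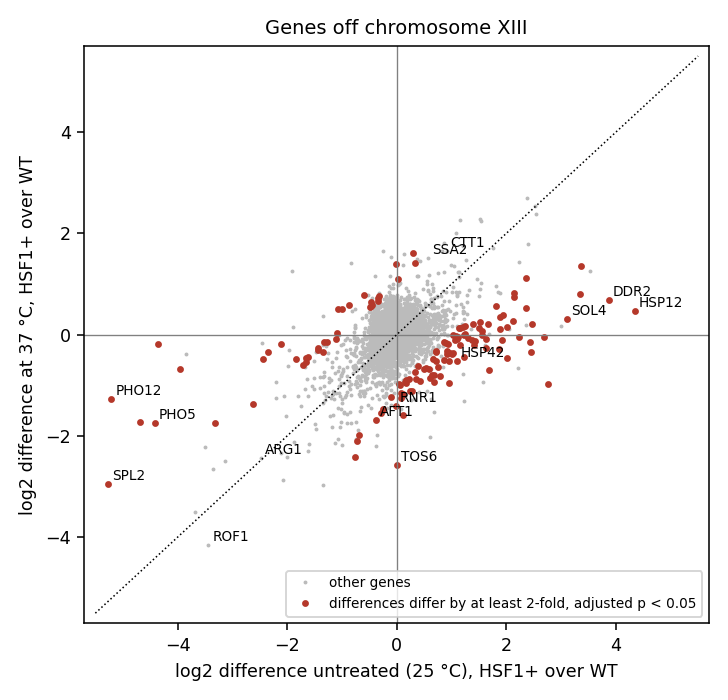
Log2 difference, HSF1+ over WT, at 37 °C (y axis) against that in untreated cells (x axis) for tested genes with a matched position off chromosome XIII. Genes beyond the axis limits are not shown. Red points are genes whose 2 differences differ by at least 2-fold at an adjusted p below 0.05, and the dotted line marks equal differences. HSP12 and DDR2 lie far right near 0 on the y axis, PHO5, PHO12 and SPL2 far left and above the dotted line, and TOS6, RNR1 and AFT1 are low at 37 °C, with TOS6 and RNR1 close to 0 and AFT1 at -0.38 untreated.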

How the data were processed

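Per the labels' protocols, libraries were made by poly-A selection (TruSeq) and read on a NovaSeq6000. Trim Galore, FastQC, STAR, Salmon and R64 appear in the submitters' processing notes, without versions or roles. The authors deposited raw counts per gene, as whole numbers, for 7126 genes in 36 libraries. How reads were counted, on which strand and with which annotation is not stated in the sources at hand, so overlapping and antisense genes may share reads.

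The model was fitted in edgeR 4.0.16 (R 4.3.3, limma 3.58.1). After filterByExpr by group 6109 genes were left. With TMM scaling, all 36 libraries entered 1 quasi-likelihood fit with a mean per group, and p-values were adjusted by Benjamini-Hochberg over all genes tested. Calls needed an adjusted p below 0.05 and 2-fold, and list members only the adjusted p. Positions and upstream stretches came from RefSeq R64, to which 6079 genes matched. RNAs without a poly-A tail were picked by their IDs.

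Alternatives changed the scaling (RLE, library size), the filter, the tool (DESeq2 1.42.0), the samples (compared groups only, each library left out, replicates 2 and 3 alone, deep untreated WT libraries thinned), the fold minimum, the replicate block and the treatment of chromosome XIII. Same-numbered libraries of the strains shared their deviations from group means. Correlations over genes were 0.65, 0.24 and 0.49 at 37 °C and 0.15 to 0.34 in the other conditions. The main fit left this sharing out, so its p-values are those of unpaired groups. Only in the replicate block were the numbers taken to pair the samples. The model was tested on simulated data.

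The members and all 36 lists were chosen with earlier results of these data known. Named genes are a selection from a fixed set, the 12 largest and 12 smallest differences among called genes with at least 10 CPM and no overlap, the 3 smallest p and the farthest member of each list, the 5 largest and 5 smallest differences between temperatures, and genes within 10 kb of HSF1. Another 37 were named after their values were seen.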

Additional observations from a re-analysis of the deposited data

Results flagged for a closer look

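The strain difference at 37 °C minus the untreated strain difference (log2, HSF1+ over WT) passed its own test at 2-fold or more for 34 of the named genes. Among stress and chaperone genes it was -3.87 for HSP12, -3.20 for DDR2, -2.80 for SOL4, -2.54 for YGP1, -2.01 for SPI1, -1.62 for HSP42, -1.46 for MSN4 and -1.06 for SSA3. On chromosome XIII it was -2.63 for TSL1, -1.62 for DDR48, -1.58 for GAD1, -1.52 for ADH2, -1.45 for CYB2, -1.15 for SNZ1 and -1.12 for PGM2. It was -2.58 for TOS6, -1.40 for RNR1, -1.37 for SRL1 and -1.22 for PCL1, whose levels vary in the cell cycle or which encode wall proteins. AFT1 stood at -1.30, ARG3 at -1.30, SCR1 at -1.65 and snR19 at -1.97. The PGM2 call was lost without any of 6 libraries (adjusted p 0.0509 to 0.084) and the SCR1 call without any of 3 (0.0607 to 0.0895). With only the compared groups in the fit the calls of SCR1 (0.0651) and ARG3 (0.0684) were lost.

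Most phosphate genes named had positive values, 3.93 for PHO12, 2.96 for PHO89, 2.68 for PHO5, 2.33 for SPL2, 1.97 for VTC3 and 1.11 for VTC4, while PHM8 stood at -1.22. Positive values also belonged to FUR4 (1.41), FIT3 (1.25), GND2 (1.09) and MCD4 (1.08). With only the compared groups the calls of PHO89 (0.0509) and FIT3 (0.0505) were lost, and that of FIT3 also with replicates 2 and 3 alone (0.0622).

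The hsf1∆ libraries, which the comparison does not use, also had chromosome XIII genes above WT of the same condition, with mean library medians of 0.88 untreated, 0.81 at 37 °C and 0.92 in AzC. In the msn2/4∆ libraries the same medians were -0.02, 0.02 and 0.00.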

How the results depend on the processing

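At 37 °C 83 of the named genes kept direction and side of the threshold in all 14 settings, and 22 did not in some. At 37 °C 1941 genes passed with no fold minimum and 207 with chromosome XIII left out, against 422. The untreated count of 455 became 1843 and 251, and the AzC count of 583 became 2677 and 359. The strain difference differed between temperatures for 2.72% of genes tested, for 11.8% with no fold minimum and 4.61% with replicates 2 and 3 alone, and for 2.13% to 5.55% without single libraries. Leaving out single libraries gave 414 to 547 at 37 °C, 404 to 448 untreated and 504 to 653 in AzC. The chromosome XIII median of 0.99 became 1.05 with scaling factors computed without that chromosome, 0.93 with library size alone and 1.01 with no low-count filter, and 0.98 to 1.00 without single libraries.

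Some values changed sign. With replicates 2 and 3 alone these were HSP82 at -0.03, SSA1 at -0.005 and KAR2 at -0.16. With library size alone KAR2 was at -0.024, and with scaling factors computed without chromosome XIII CLN1 was at 0.016. Without single libraries HSP82 ran from -0.088 to 0.204, SSA1 from -0.051 to 0.185, SSA4 from -0.208 to 0.026 and KAR2 from -0.099 to 0.128. Beside the values printed with the results, the replicate block changed no call of a named gene; in all it gave 437 calls, 266 higher and 171 lower.

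The 6 libraries hold 10222512 to 14496958 counts, and genes near 1 CPM such as ROF1 in HSF1+ rest on few reads. The alternatives for chromosome XIII were chosen after the data were seen.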

Other observations

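Further gene lists, counted off chromosome XIII at 37 °C, are read against 9.66% higher and 17.3% lower in all such genes. Of 10 histone genes 5 passed as higher in HSF1+ and 1 as lower, with a median of 0.36. Of 17 genes of sterol synthesis 9 passed as lower and none as higher (median -0.19), and of 15 genes of uracil and purine synthesis 7 passed as lower and none as higher (median -0.24). Methionine and sulfur assimilation had 6 of 23 higher and 2 lower, with a median of 0.16. Amino acid synthesis had 4 of 10 lysine genes, 3 of 9 arginine and ornithine genes, 3 of 9 branched-chain genes and 5 of 12 histidine and tryptophan genes lower.

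In ribosome biogenesis the median was 0.41, but 2 of 36 genes passed as higher and none as lower, and of 8 RNA polymerase I genes none passed in either direction, with a median of 0.46. The respiratory chain had 1 of 32 higher (median 0.14), and the tricarboxylic acid and glyoxylate cycle 3 of 19 lower (median -0.01). None of 13 chaperonin and prefoldin genes passed, and among 26 other cytosolic chaperones and co-chaperones 1 passed as higher and 3 as lower. Ubiquitin and quality control had 3 of 15 lower, hexose transporters 2 of 16 higher and 3 lower, and Yap1-target oxidative stress genes 3 of 14 higher and 2 lower. In the seripauperin family, whose members are near-identical in sequence, 3 of 13 passed as lower.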
